A study of Nicotiana benthamiana with 8 samples.

Results

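The contigs described here encode transcription factors of the WRKY family and of the ethylene-responsive and AP2-like families. They were taken from a deposited table of 3305 contigs (assembled transcripts) of the Nicotiana benthamiana transcriptome. A contig was a member when its annotation against green plant proteins contained, in upper or lower case, "WRKY", "ethylene-responsive transcription factor", "dehydration-responsive element" or "AP2-like". The rule found 10 of the 3305 contigs, of which 7 were annotated as WRKY factors and 3 as ethylene-responsive or AP2-like factors. No listed contig carried the words "dehydration-responsive element".

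The leaves came from 4-week-old N. benthamiana plants, a tobacco relative used for transient expression. In the MdMYB68 group they were infiltrated with Agrobacterium tumefaciens GV3101-pMP90 carrying the apple MYB factor MdMYB68 in pEarleyGate103, where the constitutive CaMV 35S promoter drives it as a GFP fusion. The control group received the empty vector, and the leaves of both groups also received pBIN61-p19, which expresses p19, a viral suppressor of RNA silencing. Each group had 4 libraries, each a pool of 3 plants with 4 leaves per plant, collected 4 days after infiltration, so that every value below is a mean over infiltrated leaf tissue in which fewer cells of a type and less RNA per cell cannot be told apart.

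WRKY proteins bind W-box elements in promoters and are grouped by the number of their WRKY domains and the type of their zinc finger. In leaves they are best known for regulating responses to pathogens, wounding and senescence. The AP2/ERF superfamily carries 1 or more AP2 DNA-binding domains and includes factors that act in ethylene, drought and cold responses as well as WRINKLED1, the master regulator of plastid fatty acid synthesis in Arabidopsis seeds. The roles given below are those of the Arabidopsis proteins named in the annotation, and they were not measured in N. benthamiana.

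The libraries held 29371282 to 32279582 mapped reads in the empty vector group and 31244291 to 34080202 in the MdMYB68 group. The listed contigs took 6.92 to 8.76% of the mapped reads with the empty vector and 17.5 to 18.7% with MdMYB68. The authors had kept a contig in the table only when the groups differed at a false discovery rate of 0.001, by at least 4-fold and by at least 5 RPKM. All members had therefore already been selected on this contrast, and the tests below are not independent evidence that they differ. Among markers of other cell types or tissue states, 53 of 53 listed leaf photosynthesis contigs were lower with MdMYB68 and 52 passed the test, their summed RPKM being 31872 to 46777 with the empty vector and 7238 to 11433 with MdMYB68. All 8 listed Casparian strip contigs were higher and passed, with summed RPKM of 0.454 to 1.35 against 747 to 934. The phloem list had 1 listed contig, which was higher at a ratio of 14.5 and passed but had no uniquely placed read, and the xylem list had 0. These markers moved with every member described below, and their part in those results was not tested.

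All 10 members were higher with MdMYB68 when the reads of each library were scaled by all of its mapped reads, although 3 of them fell below 0 on the log2 scale when TMM or DESeq2 factors were taken from the listed contigs alone. RPKM here denotes total reads per kilobase of contig and per 1000000 mapped reads of the library, counting both reference sets, a single denominator for all contigs. By edgeR's quasi-likelihood test with Benjamini-Hochberg adjustment over all 3305 contigs, all 10 passed the adjusted p of 0.001, against a background of 83.4% of listed contigs called higher and 12.4% called lower. None of the members was called lower, and 0 were lower at an unadjusted p under 0.05 by edgeR, DESeq2 with the library totals or limma. In all 10 the lowest MdMYB68 library lay above the highest empty vector library, but 85.9% of the listed contigs were separated in this direction and 100.0% in either direction, so that separation says nothing about the members in particular.

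Across the members the ratio of mean RPKM, MdMYB68 over empty vector, ran from 4.78 to 266 with a median of 12.2. On the log2 scale the median was 3.61 for the members, 3.67 for the 7 WRKY contigs and 3.00 for the 3 ethylene-responsive or AP2-like contigs, against 3.35 over all listed contigs and 3.79 over the 2839 that were higher. Of the 10 members, 6 lay above the median of the list and 4 above that of the higher contigs. WRKY4, WRKY56 and ERF055 stood at the 92.0, 91.8 and 84.6 percentiles of the list by ratio, and the alternate WRKY35 contig was the lowest member at the 23.0 percentile. Together the members held 17.2 ± 1.12 reads per 1000000 mapped reads with the empty vector (SD, n = 4) and 255 ± 13.5 with MdMYB68 (SD, n = 4).

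**Figure D1:**
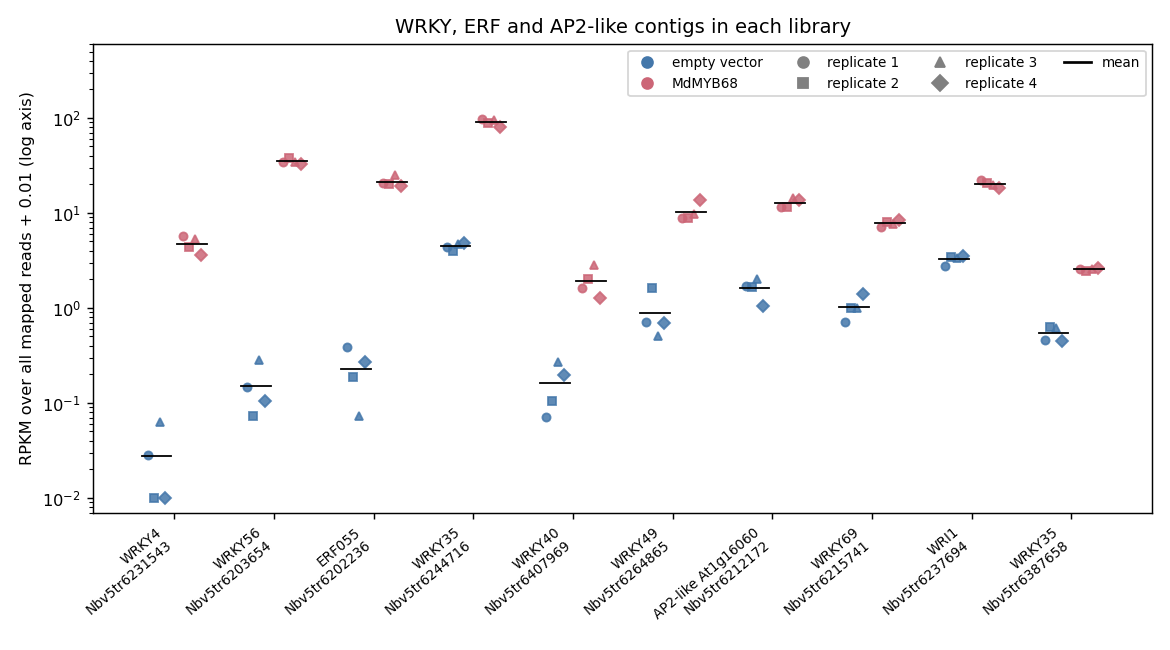
RPKM over all mapped reads, plus 0.01, on a log axis for each of the 10 contigs, with 1 point for each of the 4 empty vector and 4 MdMYB68 libraries. On this scaling the 4 MdMYB68 points of every contig lie above its 4 empty vector points, although WRKY69, WRI1 and the alternate WRKY35 contig turn lower under factors from the listed contigs. The gap is widest for WRKY56 and narrowest for the alternate WRKY35 contig.

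**Figure D2:**
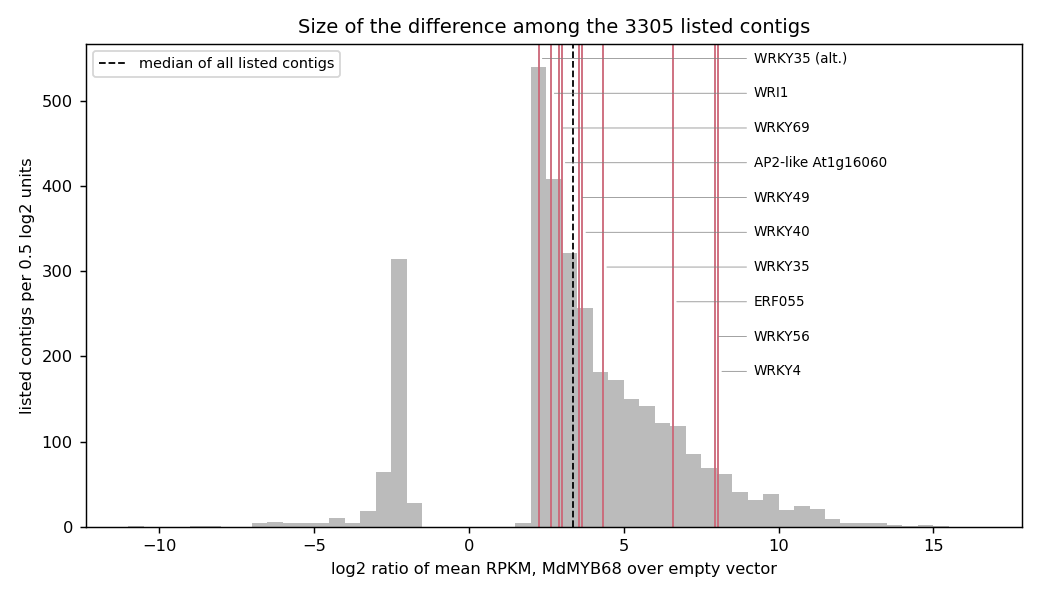
Histogram of the log2 ratio of mean RPKM (MdMYB68 over empty vector) over the 3305 listed contigs, in counts per 0.5 log2 units, with the 10 members as vertical lines and the median of the list dashed. On this scaling the members run from the alternate WRKY35 contig at the 23.0 percentile to WRKY4 at the 92.0, 6 of the 10 above the list's median, although 3 fall below 0 under factors from the listed contigs.

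The group I factor WRKY4 was close to absent with the empty vector and clearly present with MdMYB68. WRKY4, a relative of WRKY3 that acts in resistance to necrotrophic pathogens in Arabidopsis, was represented by the primary contig Nbv5tr6231543 (1883 bases). Its empty vector libraries held 1, 0, 3 and 0 reads and its MdMYB68 libraries 339, 279, 310 and 217 reads. In RPKM the level was 0.0177 ± 0.0249 (SD, n = 4) against 5.68, 4.35, 5.27 and 3.58, a mean of 4.72 ± 0.943 (SD, n = 4).
The ratio of WRKY4 was 266, with an exact Clopper-Pearson 95% interval of 107 to 1008 that covers counting error only, and the log2 fold change was 7.93 (SE 0.56, edgeR adjusted p = 2.2e-07). Empty vector replicate 3 alone held 3 of the 4 empty vector reads. Without that library 1 read was left and the ratio became 783, with an interval of 149 to 32797, whereas leaving out any other library gave 200 to 288. The size of the WRKY4 ratio is therefore known only loosely, and only 55.3% of its reads were uniquely placed.

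The group IIa factor WRKY40 was the least abundant member in the MdMYB68 leaves and the most variable. In Arabidopsis WRKY40 acts with WRKY18 and WRKY60, largely as a repressor of defence and abscisic acid responses. Its alternate contig Nbv5tr6407969 (1656 bases) had 0.0617, 0.0944, 0.260 and 0.187 RPKM with the empty vector and 1.60, 1.98, 2.82 and 1.26 RPKM with MdMYB68. The means were 0.151 ± 0.0903 and 1.92 ± 0.674 RPKM (SD, n = 4 each), a ratio of 12.7 and a log2 fold change of 3.64 (SE 0.44, edgeR adjusted p = 1.4e-05).
The lowest MdMYB68 library of WRKY40 was 4.82 times the highest empty vector library. Its coefficient of variation among MdMYB68 libraries was 35.2%, where the number of reads alone would give 9.89%. The difference between the means was 1.76 RPKM on the single denominator used here and 10.2 in the deposited RPKM, whose denominator for alternate contigs counts only reads mapped to the alternate set.

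The group IIc contigs were WRKY56 and WRKY49. WRKY56 (Nbv5tr6203654, primary, 985 bases, closest to Arabidopsis WRKY24 in the second annotation column) had 4, 2, 8 and 3 reads in the empty vector libraries, and 1081, 1273, 1049 and 1043 in the MdMYB68 libraries. Its MdMYB68 levels were 34.6, 37.9, 34.1 and 32.9 RPKM, among the tightest of the set, and the lowest of them was 122 times the highest empty vector level. The mean went from 0.141 ± 0.0907 to 34.9 ± 2.16 RPKM (SD, n = 4 each), a ratio of 247 with a counting interval of 156 to 430. Its log2 fold change was 7.92 (SE 0.28, edgeR adjusted p = 1.6e-09), and 99.9% of its reads were uniquely placed. Its control level rested on 17 reads, 8 of them in empty vector replicate 3, and leaving out single libraries gave ratios of 208 to 353.
WRKY49 (Nbv5tr6264865, alternate, 1079 bases), which lies outside the rule for naming contigs and was added after its values were seen, had 0.694, 1.62, 0.492 and 0.689 RPKM with the empty vector and 8.74, 8.89, 9.67 and 13.5 RPKM with MdMYB68. Empty vector replicate 2 and MdMYB68 replicate 4 were the high libraries of their groups, and the groups did not overlap. The means were 0.874 ± 0.507 and 10.2 ± 2.25 RPKM (SD, n = 4 each), a ratio of 11.7 and a log2 fold change of 3.54 (SE 0.37, edgeR adjusted p = 4.8e-06). None of the WRKY49 reads was uniquely placed, so that reads of a near-identical contig cannot be separated from its own.

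The group IIe contigs were a pair annotated as WRKY35 and 1 annotated as WRKY69, and they included the most abundant member. In the second annotation column the primary WRKY35 contig and the WRKY69 contig were closest to WRKY65, and the alternate contig to WRKY35. The shared name therefore does not show that the WRKY35 pair are forms of a single gene. The primary WRKY35 contig (Nbv5tr6244716, 1133 bases) had 4.33, 3.97, 4.71 and 4.81 RPKM with the empty vector, the highest control level of the set. With MdMYB68 it had 98.3, 87.5, 95.7 and 79.8 RPKM, again the highest. The means were 4.46 ± 0.385 and 90.3 ± 8.38 RPKM (SD, n = 4 each), a ratio of 20.3 and a log2 fold change of 4.34 (SE 0.13, edgeR adjusted p = 6.7e-10). All of its reads were uniquely placed, and it took 38.0 to 42.4% of all member reads in the MdMYB68 libraries against 25.4 to 31.5% in the empty vector libraries.
The alternate WRKY35 contig (Nbv5tr6387658, 1049 bases) had 0.454, 0.626, 0.601 and 0.443 RPKM with the empty vector and 2.59, 2.41, 2.53 and 2.63 RPKM with MdMYB68. Its MdMYB68 libraries lay close together and 3.84 times or more above the highest empty vector library. The means were 0.531 ± 0.0957 and 2.54 ± 0.0982 RPKM (SD, n = 4 each), a ratio of 4.78 and a log2 fold change of 2.25 (SE 0.23, edgeR adjusted p = 3.3e-06). Like WRKY49, it had no uniquely placed read.
WRKY69 (Nbv5tr6215741, primary, 1300 bases) had 0.707, 0.986, 0.995 and 1.41 RPKM with the empty vector and 7.01, 8.10, 7.63 and 8.31 RPKM with MdMYB68. The groups were separated by a gap of 4.99 times, and replicate 4 was the high library in both. The means were 1.02 ± 0.288 and 7.76 ± 0.575 RPKM (SD, n = 4 each), a ratio of 7.59 and a log2 fold change of 2.92 (SE 0.24, edgeR adjusted p = 7.1e-07).

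Among the AP2/ERF contigs the largest ratio belonged to ERF055, a DREB-type factor of subgroup A-6 whose Arabidopsis relatives include the wound-responsive WIND factors. ERF055 (Nbv5tr6202236, primary, 1071 bases) had 12, 6, 2 and 9 reads in the empty vector libraries, or 0.381, 0.175, 0.0620 and 0.260 RPKM. With MdMYB68 it had 700, 742, 842 and 655 reads, or 20.6, 20.3, 25.2 and 19.0 RPKM, and replicate 3 was the high library. The means were 0.220 ± 0.135 and 21.3 ± 2.69 RPKM (SD, n = 4 each), a ratio of 96.8 with a counting interval of 67.4 to 145. Its log2 fold change was 6.58 (SE 0.35, edgeR adjusted p = 2.6e-08), and all of its reads were uniquely placed.
WRI1 (Nbv5tr6237694, primary, 1792 bases), annotated as the ethylene-responsive factor WRINKLED1, was already readily detected with the empty vector at 2.72, 3.44, 3.31 and 3.49 RPKM. With MdMYB68 it had 22.3, 20.4, 19.9 and 18.4 RPKM, and no library stood apart in either group. The means were 3.24 ± 0.356 and 20.2 ± 1.62 RPKM (SD, n = 4 each), a ratio of 6.25 and a log2 fold change of 2.64 (SE 0.13, edgeR adjusted p = 1.5e-08).
The AP2-like At1g16060 contig (Nbv5tr6212172, primary, 1823 bases) belongs with the WRINKLED relatives that act in cutin and wax supply in Arabidopsis. It had 1.68, 1.65, 2.00 and 1.04 RPKM with the empty vector and 11.4, 11.6, 14.3 and 13.7 RPKM with MdMYB68. The groups did not overlap, and the lowest MdMYB68 library was 5.70 times the highest empty vector library. The means were 1.59 ± 0.403 and 12.7 ± 1.45 RPKM (SD, n = 4 each), a ratio of 8.00 and a log2 fold change of 3.00 (SE 0.21, edgeR adjusted p = 2.2e-07).

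The order of the members by level changed between the groups. With the empty vector, WRKY35 (primary) came first, then WRI1, and these were separated from each other and from the rest. The next 4, AP2-like At1g16060, WRKY69, WRKY49 and the alternate WRKY35 contig, overlapped with their neighbours in library range, as did ERF055, WRKY40 and WRKY56 below them, and WRKY4 was last. With MdMYB68, WRKY56 moved up to stand directly behind WRKY35 and did not overlap with either neighbour. ERF055 and WRI1 came next and overlapped, as did AP2-like At1g16060 and WRKY49 after them, and WRKY69, WRKY4 and the overlapping pair of alternate WRKY35 and WRKY40 followed. No library was high or low throughout: MdMYB68 replicate 4 was the lowest of its group for 6 members and the highest for 3. The spread among libraries exceeded what counting alone would give for 9 of the 10 members in each group, the exception in both being the alternate WRKY35 contig.

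Within subgroups the levels of the contigs relative to each other also differed between the groups. The ratio of RPKM was taken within every library, which removes the scaling of the library. The 5 pairs were chosen after their values were seen, and the ratios are given as a description with no test. Primary over alternate WRKY35 was 8.65 ± 1.97 with the empty vector and 35.6 ± 3.61 with MdMYB68 (SD, n = 4 each), a log2 difference of 2.07 (SE 0.19). WRKY35 over WRKY69 was 4.58 ± 1.16 against 11.7 ± 1.94 (SD, n = 4 each), a log2 difference of 1.38 (SE 0.22). In both pairs the libraries of the groups did not overlap. Alternate WRKY35 over WRKY69 was 0.549 ± 0.157 against 0.329 ± 0.0304 (SD, n = 4 each), and here empty vector replicate 4 at 0.315 lay among the MdMYB68 libraries.
WRKY56 over WRKY49 was 0.231 ± 0.221 against 3.55 ± 0.802 (SD, n = 4 each), a log2 difference of 4.48 (SE 0.81). The less abundant of these group IIc contigs in the control leaves was thus the more abundant with MdMYB68. For both WRINKLED-type contigs, AP2-like At1g16060 over WRI1 was 0.500 ± 0.149 against 0.635 ± 0.113 (SD, n = 4 each), and the groups overlapped. The alternate WRKY35 and WRKY49 contigs have no uniquely placed read, which limits the ratios that use them.

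**Figure D3:**
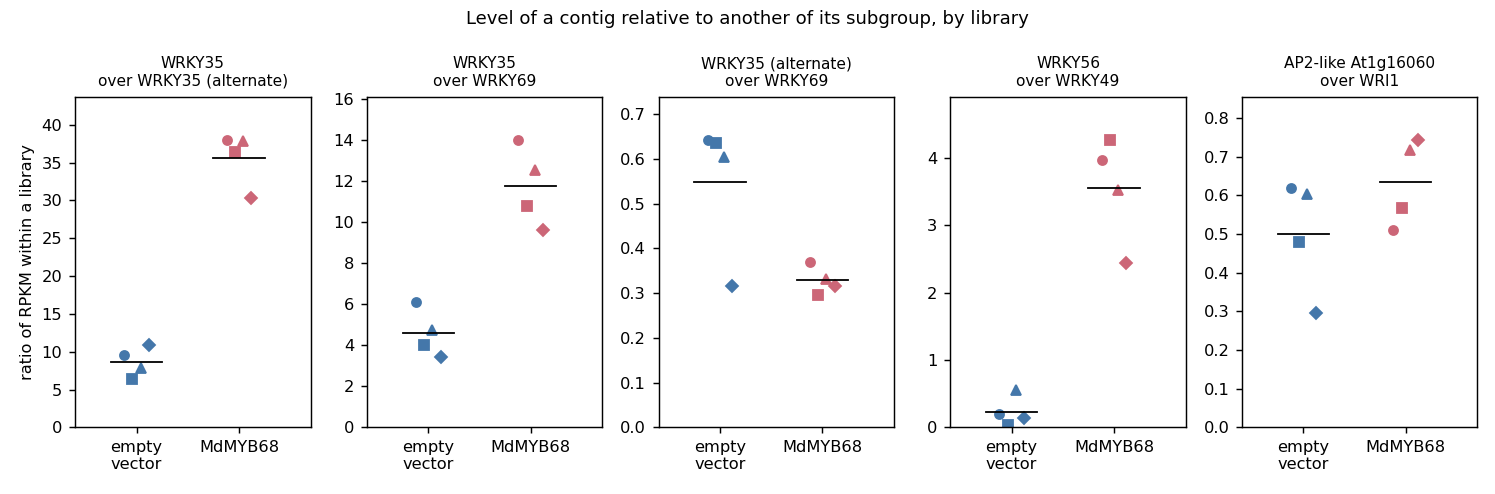
Ratio of the RPKM of a contig to that of another of its subgroup within each library, for 5 pairs, with 1 point per library for the 4 empty vector and 4 MdMYB68 libraries and a bar at each group's mean. The ratios of the groups are separated for primary over alternate WRKY35, primary WRKY35 over WRKY69 and WRKY56 over WRKY49. They overlap for alternate WRKY35 over WRKY69 and for AP2-like At1g16060 over WRI1.

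How many members counted as higher depended on the scaling. When TMM factors were computed on the listed contigs alone, 4 members (WRKY4, WRKY56, ERF055 and primary WRKY35) were called higher by edgeR, against a background of 29.2%, and 7 of the 10 had a log2 fold change above 0, against 57.9% of the list. No member was called lower (background 18.5%), and 2 were lower at an unadjusted p under 0.05 by edgeR. DESeq2 with its own size factors from the list also called 4 members higher (background 37.1%) and 0 lower (background 22.7%), with 2 lower at an unadjusted p under 0.05 and 7 of the 10 above 0 (background 58.6%). WRKY69, WRI1 and the alternate WRKY35 contig had log2 fold changes of −0.03, −0.31 and −0.69 with TMM. That scaling shifted the median over the listed contigs by −2.94 on the log2 scale, and its factors come from a list of which 85.9% was higher. With TMM the median of the listed contigs stood at 0.40 and not at 0, so that a call there is no test against the typical listed contig.

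**Figure D4:**
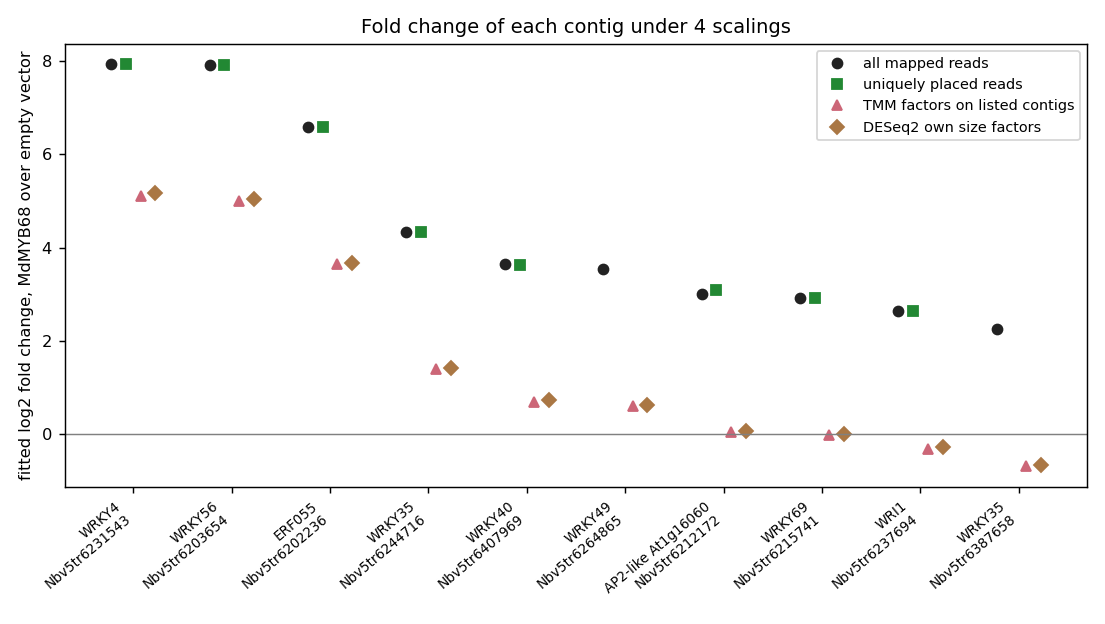
Fitted log2 fold change (MdMYB68 over empty vector) of each of the 10 contigs under 4 scalings. With the mapped reads of each library as its size all 10 lie above 0, whereas with factors taken from the listed contigs WRKY69, WRI1 and the alternate WRKY35 contig lie below 0.

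Whether a contig was placed on the primary or the alternate reference also mattered for its deposited level. The mapped total exceeded the denominators of the deposited RPKM by 1.20 to 1.21 times for primary contigs and by 5.76 to 6.04 times for alternate contigs. How surely the reads belonged to a contig also differed. At least 90% of the reads were uniquely placed for 7 members, against 43.7% of the list, and none were for 2 (WRKY49 and alternate WRKY35), against 12% of the list. With uniquely placed reads alone, edgeR called all 8 members that could be fitted higher (background 80.3%) and 0 lower (background 9.91%), all 8 lying above 0 (background 86.7%). Every member had at least 1 empty vector read, whereas 5.42% of the list had none. On the single denominator, 7 of the 10 members met both a 4-fold change and a difference of 5 RPKM, against 68.6% of the listed contigs. The exceptions were WRKY4 with a difference of 4.70 RPKM, the alternate WRKY35 contig with 2.01 and WRKY40 with 1.76. Of the members, 3 were alternate contigs, against 44.6% of the list.

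Contigs of the ethylene pathway were also in the table, and the values below use the same scaling by all mapped reads. A search for ACC oxidase, the enzyme that forms ethylene, found 6 listed contigs. Among them Nbv5tr6214068, at a ratio of 4.68, was annotated only as an ACC oxidase homolog and may not be this enzyme. Of the 6, 5 were called higher and 1 lower by edgeR, with a median log2 ratio of 6.32 against 3.35 over all listed contigs. The 3 contigs annotated as ACC oxidase 5 had ratios of 88.1, 601 and 734, with 95.7, 69.5 and 33.1% of their reads uniquely placed. They may therefore not all be separate measurements. ACC oxidase 3 (Nbv5tr6231405), by contrast, had 1200 reads in the empty vector libraries together and 273 with MdMYB68, a ratio of 0.217 (edgeR adjusted p = 7.9e-06). All 4 listed contigs of ethylene perception and signalling were called higher, with a median log2 ratio of 2.37. They were the EIN3-like factor Nbv5tr6216925 and 3 contigs annotated as CTR1, the kinase that represses the pathway in Arabidopsis. The CTR1 contigs had ratios of 4.58 to 5.54. The contig at 4.58 carried the Arabidopsis symbol AT4G24480 and not CTR1, so its place in the pathway is not settled. It had 19.8% of its reads uniquely placed, and the contig at 5.54 had 45.3%. Nbv5tr6216925 was annotated as EIN3-like 5, while its Arabidopsis match was EIN3-like 4 and its symbol EIL3, so its place in the pathway is not settled either. Its level was 0.357 ± 0.0642 RPKM with the empty vector and 16.0 ± 3.62 with MdMYB68 (SD, n = 4 each), a ratio of 44.9.

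The list of VQ proteins, which bind WRKY factors, and of MAP kinase cascades, whose final kinases phosphorylate some of them, held 15 listed contigs, all called higher by edgeR with a median log2 ratio of 5.44. Of these, 8 were annotated as MAPKKK A with ratios of 18.9 to 178, among them 2 without an empty vector read that are taken at their bound from 3 reads over the group. The share of uniquely placed reads ran from 0 for that pair and 3.11% for the contig at 178 to 99.3% for the contig at 18.9. The MAPKKK A contigs were therefore not all measured separately. Another contig without an empty vector read, Nbv5tr6201661, resembled MAPKKK A only in its Arabidopsis match and was at least 133-fold higher. A pair of VQ motif contigs had ratios of 4.72, with no uniquely placed read, and 6.78, with 99.9% of its reads uniquely placed. Of the 13 listed pathogenesis-related and defence contigs, 10 were called higher and 3 lower, with a median log2 ratio of 2.77. The 3 contigs annotated as PR1A, with the Arabidopsis symbols PR1, PRB1 and AT4G33720, were the lower ones at ratios of 0.132 to 0.249. In contrast, 5 osmotin-like contigs had ratios of 5.01 to 8.22 and thaumatin-like 1 contigs 20.1 and 23.9.

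All 10 listed dehydration and cold response contigs were late embryogenesis abundant proteins and all were called higher, with a median log2 ratio of 7.42 in which 5 contigs without an empty vector read stand at their bound. A search for fatty acid synthesis and pyruvate enzyme terms, chosen for processes that WRI1 controls in Arabidopsis, found 10 listed contigs, of which 5 were called higher, 2 lower and 3 neither, with a median log2 ratio of 2.41. On the higher side a pair of plastid pyruvate kinase A contigs had ratios of 21.0 and 25.5, the latter with 1.65% of its reads uniquely placed. Plastid acyl carrier protein desaturase 6 had 17.7 and a plastid palmitoyl thioesterase 8.80. A pair of cytosolic pyruvate kinase contigs had 4.01 and 7.07, the latter not called, and the median of the list lies between them. On the lower side plastid acyl carrier protein 1 had 0.239 and the plastid desaturase SSI2 0.190, with 12.1% of its reads uniquely placed. The other pair of lower contigs was annotated as mitochondrial, had ratios of 0.213 and 0.151 and was not called.

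A search for jasmonate and lipoxygenase terms found 7 contigs, all called higher, with a median log2 ratio of 3.30. Of these, 4 were TIFY repressors and 1 was allene oxide synthase at a ratio of 5.89. The other 2 were 9-lipoxygenases, which do not act on the route to jasmonate, at 8.14 and 24.0. They had 11.4 and 52.9% of their reads uniquely placed, in that order. The abscisic acid list held 3 contigs annotated as PYL4 receptors, at ratios of 32.7 to 93.5. All of them carried the Arabidopsis symbol PYL6, and 46.8 to 65.5% of their reads were uniquely placed. The 8 abscisic acid contigs were all called higher, with a median log2 ratio of 2.93. All of these contigs had passed the same selection as the members, so that their counts stand beside the backgrounds of 83.4% and 12.4%.

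**Figure D5:**
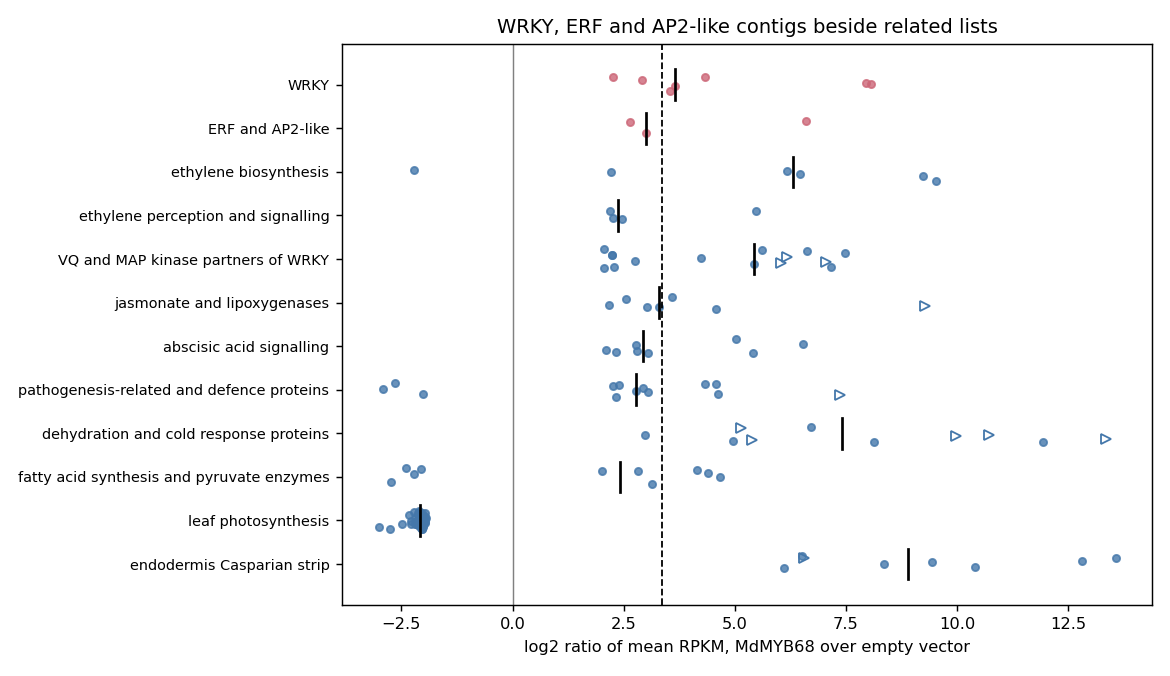
Log2 ratio of mean RPKM (MdMYB68 over empty vector) of each listed contig in the member families, the related pathway lists and the marker lists, with 1 point per contig, a bar at each list's median, the median of all listed contigs dashed, and open triangles for lower bounds. The member families lie above 0 on this scaling, where factors from the listed contigs put 3 members below 0, the ethylene biosynthesis, defence and fatty acid lists have contigs on both sides, and the photosynthesis contigs lie below 0.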

How the data were processed

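RNA from leaves was sequenced as 75-base paired reads. With CLC Genomics Workbench the authors aligned them to the N. benthamiana transcriptome, which has a primary and an alternate set. They deposited counts per contig and library, total and uniquely placed, and RPKM, scaled by the reads mapped to the primary or the alternate set. Their columns of fold change, log2, RPKM difference, p and FDR were not used, and 0 library columns were left out. The library totals were recovered from the counts and RPKM. The level of MdMYB68 itself, an apple gene, was not analysed here.

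Total counts were fitted for 4 against 4 libraries with edgeR 4.0.16 (quasi-likelihood, library totals as library sizes, no factors, Benjamini-Hochberg adjustment, no filter, and a call at an adjusted p of 0.001) in R 4.3.3. SE is the absolute log2 fold change divided by the square root of F. DESeq2 1.42.0 and limma 3.58.1 were alternatives, the latter on the log2 of the deposited RPKM plus 1 or plus 0.1. Other alternatives were TMM factors, uniquely placed reads, low-count filters, the replicate block and leaving out each library. Figures and exact intervals used Python 3.11.15, scipy 1.17.1 and matplotlib 3.10.9. The edgeR fit was also run on simulated counts. Most contigs there were simulated without a difference, unlike the listed contigs, so that run cannot show how the fit behaves on a selected list. Bounds for contigs with no empty vector read used 3 reads over the group. Values per library were due for the 12 largest rises with most reads uniquely placed and for contigs sharing a name, and WRKY49 was added so that all members were named. The members and lists were chosen with earlier results of these data known.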

Additional observations from a re-analysis of the deposited data

Results flagged for a closer look

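A library that stood apart from the other 3 of its group, by Dixon's test at the 95% level, was found for 2 of the 38 sets of 4 values examined, and chance gives about 1 in 20. The ratio of alternate WRKY35 to WRKY69 was 0.315 in empty vector replicate 4, whereas the nearest of the other empty vector libraries was at 0.604. The EIN3-like contig Nbv5tr6216925 had 10.6 RPKM in MdMYB68 replicate 4, whereas the nearest of the other MdMYB68 libraries had 17.6.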

How the results depend on the processing

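With factors from the listed contigs in place of library totals, the listed contigs called went from 3168 to 1576 with TMM in edgeR and 1977 with DESeq2's size factors. Members called higher went from 10 to 4 and 4, WRKY contigs from 7 to 3 and 3, and ethylene-responsive or AP2-like contigs from 3 to 1 and 1. The log2 fold change turned to −0.031 and −0.0072 for WRKY69, −0.31 and −0.29 for WRI1, and −0.69 and −0.67 for the alternate WRKY35 contig, with TMM and DESeq2 in that order. WRKY40 at 0.69 and 0.73, WRKY49 at 0.60 and 0.62, and AP2-like At1g16060 at 0.05 and 0.07 kept their direction and lost the call, with edgeR adjusted p of 0.17, 0.17 and 0.85. With uniquely placed reads, 8 members could be fitted and all 8 were called, beside 2621 of the 2907 listed contigs that could be fitted. Their median log2 ratio was 3.99 against 3.61 for the 10. WRKY49 and the alternate WRKY35 contig are missing from the former set, so the medians cannot show what the choice of reads changes. With the replicate block, all 10 members and 2615 contigs were called. Libraries with the same number did not deviate together over the listed contigs (correlations of −0.07, −0.07, −0.02 and 0.00). These values cannot show whether such libraries were handled together. Leaving out each library in turn kept all 10 members called, with 3078 to 3158 contigs called and member medians of 3.43 to 3.76. Library totals without the listed contigs, an alternative chosen after seeing the data, also called all 10, beside 3179 of the 3305 listed contigs. Nearly every listed contig was thus called there, so that count says nothing about the members in particular. WRKY4 with the empty vector is limited by depth, resting on 4 reads in 4 libraries. The p-values measure the spread between these pools of plants.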

Other observations

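Some contigs related to the AP2/ERF family fell outside the annotation rule and were picked after their values were seen. The APETALA 2 contig Nbv5tr6237706 had 0.947 ± 0.245 RPKM with the empty vector and 7.27 ± 0.729 with MdMYB68 (SD, n = 4 each), a ratio of 7.67 (edgeR adjusted p = 4.3e-07). Both contigs annotated only as AP2/ERF domain-containing had no empty vector read. Nbv5tr6198235, which resembles the Arabidopsis ethylene-responsive factor RAP2-11, had 36 to 51 reads in the MdMYB68 libraries and was at least 57.8-fold higher, taking 3 reads over the empty vector group as the bound. Nbv5tr6292649 had 16 to 25 reads and was at least 25.8-fold higher by the same bound.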
